A study of Mus musculus with 2 samples.

Results

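The Ifit family and viperin are antiviral genes that cells switch on in answer to type I interferon. Here they are 6 mouse genes, Ifit1, Ifit2, Ifit3, Ifit3b, Ifit1bl1 and Rsad2, taken by symbol from the 31053 genes of 2 single-cell RNA libraries of bone marrow. They were selected on their unique molecular identifiers (UMIs, counted molecules), as interferon-induced genes whose counts differ between the libraries, so that difference is given below as a description, with no test. What the choice did not use is how the 6 genes vary among cell types and relative to each other.

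The first library is labelled Apoe(-/-), Itgb3(-/-) and is called the null-labelled library. The second is labelled Apoe(-/-), Itgb3(+/+) and is called the control-labelled library. Both come from C57BL/6 mice of 6 months with the disease label Atherosclerosis. By label both lack Apoe, the apolipoprotein whose loss raises plasma cholesterol. They differ by label in Itgb3, which encodes integrin β3 of platelets and other cells. There is 1 library per genotype, and the sources used here do not say how many animals went into each. Genotype, animal, dissection and library therefore cannot be told apart, and every interval below covers counting error only.

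After filtering, 2903 cells with a median of 9321 UMIs were left in the null-labelled library and 8595 cells with a median of 4812 UMIs in the control-labelled library. Levels are counts per 1000000 UMIs (CPM) of the cells summed. Cell types were rebuilt from marker genes, with the interferon-response genes and some other gene groups left out of clustering. Of these types, 8 had at least 50 cells in both libraries: erythroid-like, hematopoietic stem and progenitor (HSPC)-like, granulocyte-monocyte progenitor (GMP)-like, immature and mature neutrophil-like, B precursor-like, T-like and mature B-like cells. The libraries stand apart beyond these 6 genes: in 144 of 154 sub-clusters at least 90% of the cells belonged to 1 library, and 7.88% of the 2717 genes measured over all cells were 2-fold or more higher in the null-labelled library. Itgb3 was at 7.39 CPM in null-labelled cells and at 23.6 CPM in control-labelled cells. Apoe, by label lost in both libraries, was at 62.0 CPM in null-labelled and 98.4 CPM in control-labelled cells. Whether the 3′ tag of either gene lies in the deleted part is not known, so these levels do not check the labels. Of the sex-linked transcripts, Ddx3y was at 54.2 CPM against 40.5 CPM, Uty at 14.7 CPM against 10.8 CPM and Eif2s3y at 50.9 CPM against 55.4 CPM, and none of the 4 with 30 UMIs differed by 2-fold.

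Type I interferon binds its receptor on the cell surface, and the kinases Jak1 and Tyk2 then activate transcription factors of the STAT family, which enter the nucleus with IRF9 and bind a DNA element called the interferon-stimulated response element. The Ifit genes encode proteins built of tetratricopeptide repeats, and Ifit1 binds RNA whose cap lacks the methyl mark of the host. Among the human proteins, IFIT2 and IFIT3 bind each other and IFIT1. Ifit3b is a close copy of Ifit3. The longest annotated transcript of Ifit1bl1 was identical to that of Ifit1 at 78.4% of 2072 aligned bases. Rsad2 encodes viperin, a radical SAM enzyme that turns CTP into a nucleotide analogue that ends viral RNA chains.

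The 5 Ifit genes lie within 99316 bases of chromosome 19 (mm10, GENCODE vM21), and Rsad2 lies on chromosome 12. All 6 are annotated as protein coding. Ifit2 (ENSMUSG00000045932) spans chr19:34550694-34576419, Ifit3 (ENSMUSG00000074896) chr19:34583531-34588731, Ifit3b (ENSMUSG00000062488) chr19:34607970-34613401 and Ifit1 (ENSMUSG00000034459) chr19:34640871-34650009, each on the plus strand. Ifit1bl1 (ENSMUSG00000079339) spans chr19:34592891-34601956 on the minus strand, and Rsad2 (ENSMUSG00000020641) chr12:26442746-26456452 on the minus strand.

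The promoters are shown because the core of the interferon-stimulated response element can be read in them. Each line gives the 250 bases before a RefSeq start site (GRCm38.p6), 5′ to 3′ on the strand of the gene. Capitals mark matches to a motif of GAAA, any 2 bases and GAAA again, or to its reverse complement of TTTC, any 2 bases and TTTC, searched on both strands. The windows are chr19:34640639-34640888 for Ifit1, chr19:34583279-34583528 for Ifit3 and chr19:34607707-34607956 for Ifit3b, all on the plus strand, and chr19:34601969-34602218 for Ifit1bl1 and chr12:26456453-26456702 for Rsad2, both on the minus strand.
Ifit1: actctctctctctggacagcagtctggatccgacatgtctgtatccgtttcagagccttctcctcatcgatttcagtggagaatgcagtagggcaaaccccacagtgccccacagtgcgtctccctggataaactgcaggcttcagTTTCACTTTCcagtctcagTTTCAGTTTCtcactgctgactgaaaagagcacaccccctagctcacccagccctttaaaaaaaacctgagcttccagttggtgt
Ifit3: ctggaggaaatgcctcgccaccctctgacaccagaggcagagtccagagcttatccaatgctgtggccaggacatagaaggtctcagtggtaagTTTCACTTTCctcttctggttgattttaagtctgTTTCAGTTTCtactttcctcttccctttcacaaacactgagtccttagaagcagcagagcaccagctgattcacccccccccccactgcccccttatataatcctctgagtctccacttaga
Ifit3b: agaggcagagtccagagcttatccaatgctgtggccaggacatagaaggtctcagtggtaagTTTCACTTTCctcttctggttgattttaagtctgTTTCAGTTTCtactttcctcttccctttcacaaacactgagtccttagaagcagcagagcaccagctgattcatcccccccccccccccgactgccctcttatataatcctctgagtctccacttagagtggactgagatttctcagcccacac
Ifit1bl1: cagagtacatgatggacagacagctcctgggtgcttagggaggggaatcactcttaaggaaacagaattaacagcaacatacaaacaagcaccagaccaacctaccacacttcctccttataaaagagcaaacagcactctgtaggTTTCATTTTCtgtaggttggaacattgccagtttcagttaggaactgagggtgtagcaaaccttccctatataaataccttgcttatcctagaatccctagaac
Rsad2: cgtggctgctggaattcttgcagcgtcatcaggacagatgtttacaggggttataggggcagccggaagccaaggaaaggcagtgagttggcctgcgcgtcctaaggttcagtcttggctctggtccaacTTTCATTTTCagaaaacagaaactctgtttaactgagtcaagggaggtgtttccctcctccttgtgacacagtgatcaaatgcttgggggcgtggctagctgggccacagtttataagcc

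Ifit1, Ifit3 and Ifit3b each held 2 matches, and Rsad2 and Ifit1bl1 held 1 each, all of them in the TTTC form. The match farthest from the start began 104 bases before the start of Ifit1, 156 bases before that of Ifit3, 188 bases before that of Ifit3b, 104 bases before that of Ifit1bl1 and 120 bases before that of Rsad2. Of 32851 RefSeq windows of 300 bases (250 before to 50 after a start), 3.44% held the motif on either strand and 0.225% held 2 or more matches. No match overlapped another in the windows printed, and neither of the 2 windows listed for Ifit2 held these letters. A match is a description of the sequence and not a measured binding site.

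Over all cells, all 6 genes were 2-fold or more higher in the null-labelled library, where 7.88% of all genes measured were. That count restates the choice of the genes. What differs among them is the size. Rsad2 had the most UMIs in both libraries and the smallest ratio, at 956 CPM in null-labelled cells (32099 UMIs) against 133 CPM in control-labelled cells (7850 UMIs), 7.19-fold higher (95% interval 7.01 to 7.37). For Ifit1 the levels were 307 CPM against 7.24 CPM (42.4-fold, 38.5 to 46.9), for Ifit3 147 CPM against 2.90 CPM (50.7-fold, 43.5 to 59.4) and for Ifit2 142 CPM against 5.39 CPM (26.3-fold, 23.4 to 29.5). Ifit3b was at 36.7 CPM against 1.68 CPM (21.9-fold), and Ifit1bl1 was at 22.5 CPM against 0.780 CPM (28.8-fold). Ifit3b and Ifit1bl1 stay under the 50 CPM that the genome-wide count required.

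The smaller ratio of Rsad2 followed its level in control-labelled cells, where viperin transcripts made up 88.1% of the UMIs of the 6 genes (87.4% to 88.8%), against 59.4% (59.0% to 59.8%) in the null-labelled library. Summed, the 5 Ifit genes were at 655 CPM in null-labelled cells against 18.0 CPM in control-labelled cells, 36.4-fold higher (34.2 to 38.8).

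**Figure D1:**
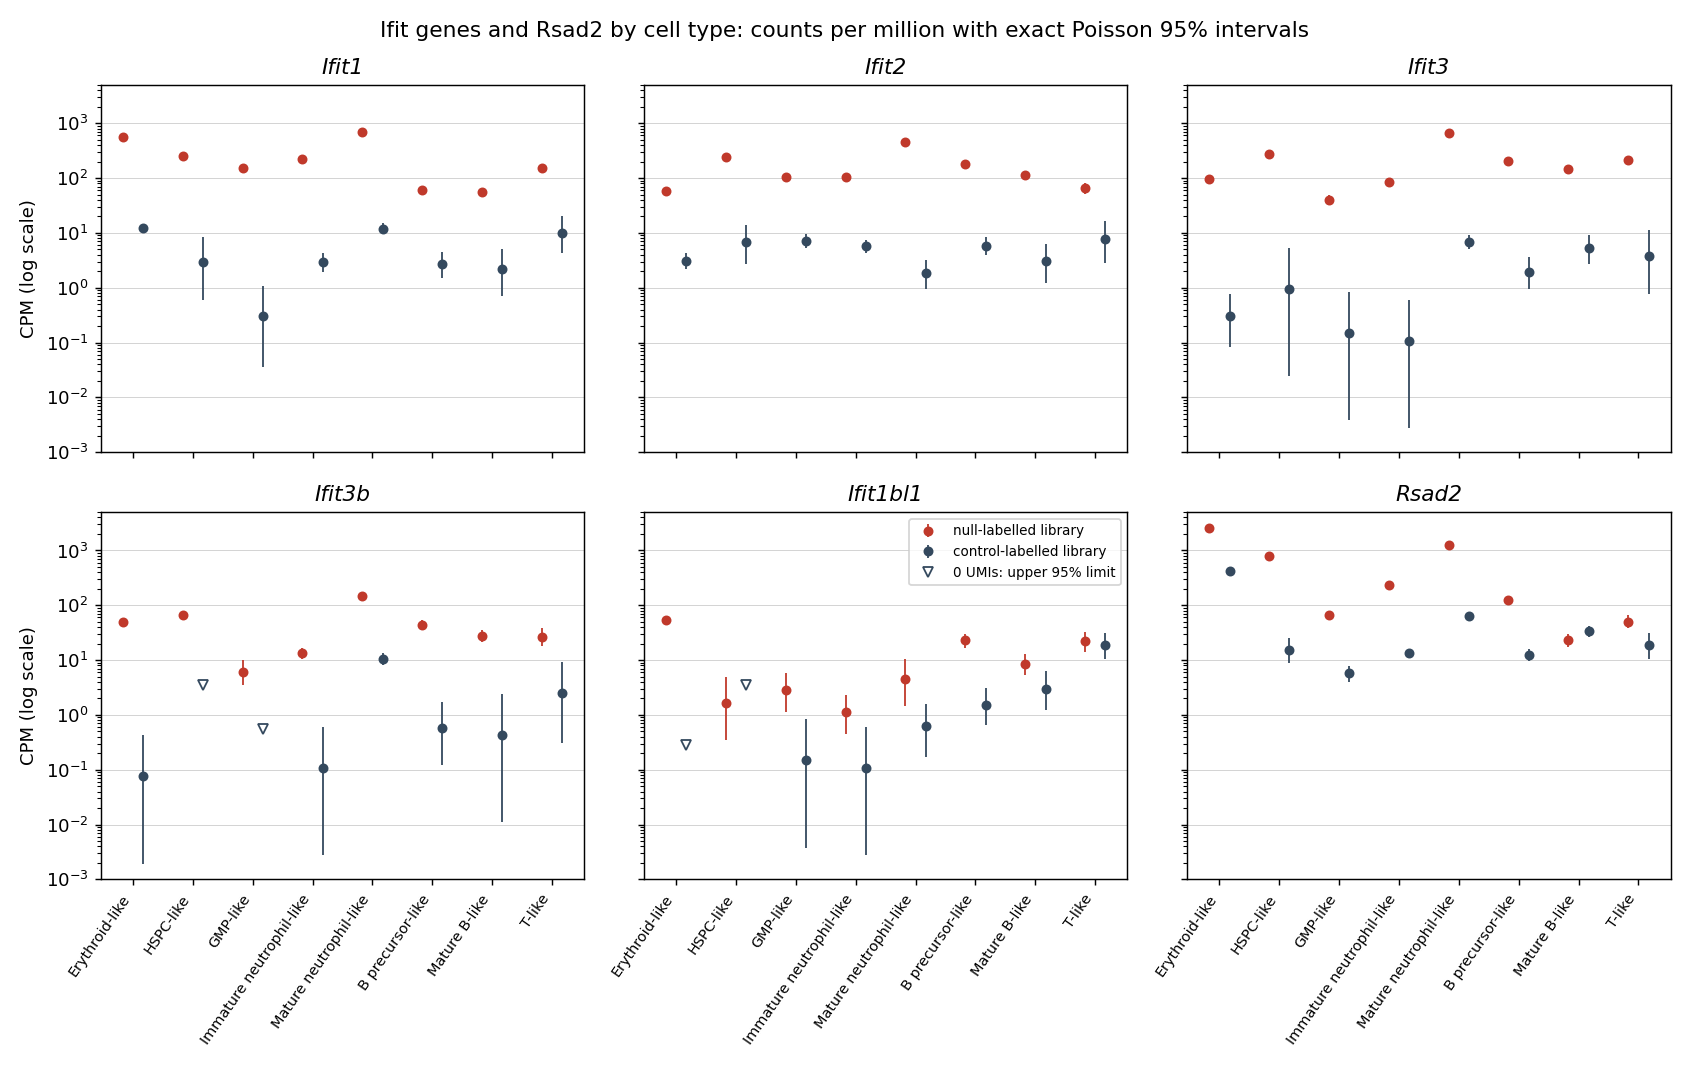
Level of each of the 6 genes in CPM (log scale) in the 8 cell types, with exact Poisson 95% intervals, for the null-labelled (red, left of each pair) and the control-labelled library (dark, right). An open triangle is the upper 95% limit where no UMI was counted. Null-labelled points lie above control-labelled marks except for Rsad2 in mature B-like cells (23.2 CPM against 33.8 CPM) and for Ifit1bl1 in HSPC-like cells (1.69 CPM against an upper limit of 3.55 CPM). The Ifit1bl1 intervals also overlap in T-like, mature B-like and both neutrophil-like types.

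Among the 8 compared types, to which the orders of levels below are limited, Rsad2 was highest in erythroid-like cells of both libraries. It was at 2584 CPM there in null-labelled cells against 428 CPM in control-labelled cells, 6.03-fold higher (5.86 to 6.21). Those cells were 31.7% of the null-labelled and 20.9% of the control-labelled cells, and they held 76.2% and 71.9% of all Rsad2 UMIs. Mature neutrophil-like cells came next, at 1280.5 CPM against 63.9 CPM (20.03-fold, 17.9 to 22.4), followed in the null-labelled library by HSPC-like cells at 785 CPM against 15.4 CPM (50.9-fold, 31.2 to 89.4). Immature neutrophil-like cells were at 231 CPM against 13.4 CPM, B precursor-like cells at 126 CPM against 12.4 CPM and GMP-like cells at 66.6 CPM against 5.71 CPM. In the null-labelled library T-like cells at 50.3 CPM and mature B-like cells at 23.2 CPM were lowest. In the control-labelled library T-like cells were at 19.0 CPM and mature B-like cells at 33.8 CPM. Those values were above the HSPC-like, immature neutrophil-like, B precursor-like and GMP-like ones. No 2 neighbours in the null-labelled order had overlapping counting intervals except GMP-like and T-like cells, and among control-labelled types the levels from 12.4 to 19.0 CPM had overlapping intervals.

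Mature B-like cells were the single compared type in which viperin transcripts were not higher, with 57 and 78 UMIs and a ratio of 0.685 (0.478 to 0.976). That direction turned when each cell was thinned to the same depth (log2 ratio 0.52), when cells were weighted equally (0.46) and when cells were named one by one (0.88). Rsad2 was detected after thinning in 11 of 382 null-labelled cells (2.88%) and 13 of 840 control-labelled cells (1.55%), and the intervals of the shares overlap. The 5 Ifit genes summed in the same cells were at 352 CPM against 13.9 CPM, 25.4-fold higher (17.8 to 37.3).

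Hemoglobin transcripts, the mark of red cell RNA, were found in every class, and Rsad2 was set beside them because erythroid-like cells hold most of its UMIs. In erythroid-like cells there were 4024 Rsad2 UMIs per 1000000 hemoglobin UMIs in the null-labelled library, against 937 in the control-labelled one. Null-labelled mature B-like cells held 4023, T-like cells 4712 and natural killer (NK)-like cells 3312, close to the erythroid-like value. In these null-labelled mature B-like cells 57 Rsad2 UMIs were counted, and their hemoglobin at the erythroid-like ratio corresponds to 57.0. Null-labelled HSPC-like cells held 1395 Rsad2 UMIs where hemoglobin corresponds to 4.32, and mature neutrophil-like cells held 1421 where it corresponds to 42.9. Immature neutrophil-like cells held 1423 where it corresponds to 237, GMP-like cells 162 against 36.7 and B precursor-like cells 269 against 207. Null-labelled plasma-like cells lay under the erythroid-like value, with 7 Rsad2 UMIs where hemoglobin corresponds to 105.

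In the control-labelled library the 8 types lay between 277 and 1647. B precursor-like cells held 277 Rsad2 UMIs per 1000000 hemoglobin UMIs, T-like cells 320, mature B-like cells 452, immature neutrophil-like cells 606, GMP-like cells 652 and HSPC-like cells 1105. Mature neutrophil-like cells were above the erythroid-like value at 1647, with 410 UMIs counted where hemoglobin corresponds to 233, and so were macrophage-like cells at 1381, with 1115 UMIs where it corresponds to 757. Barcodes with under 200 genes, whose UMIs were mostly hemoglobin, held 268.3 in the null-labelled and 267.7 in the control-labelled library, under every one of the 8 types. The part of red cell RNA in the Rsad2 counts of the other types was not tested. Hemoglobin made up 0.576% of null-labelled and 7.48% of control-labelled mature B-like UMIs, 1.07% and 5.93% in T-like cells, and 2.40% and 4.48% in B precursor-like cells.

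**Figure D2:**
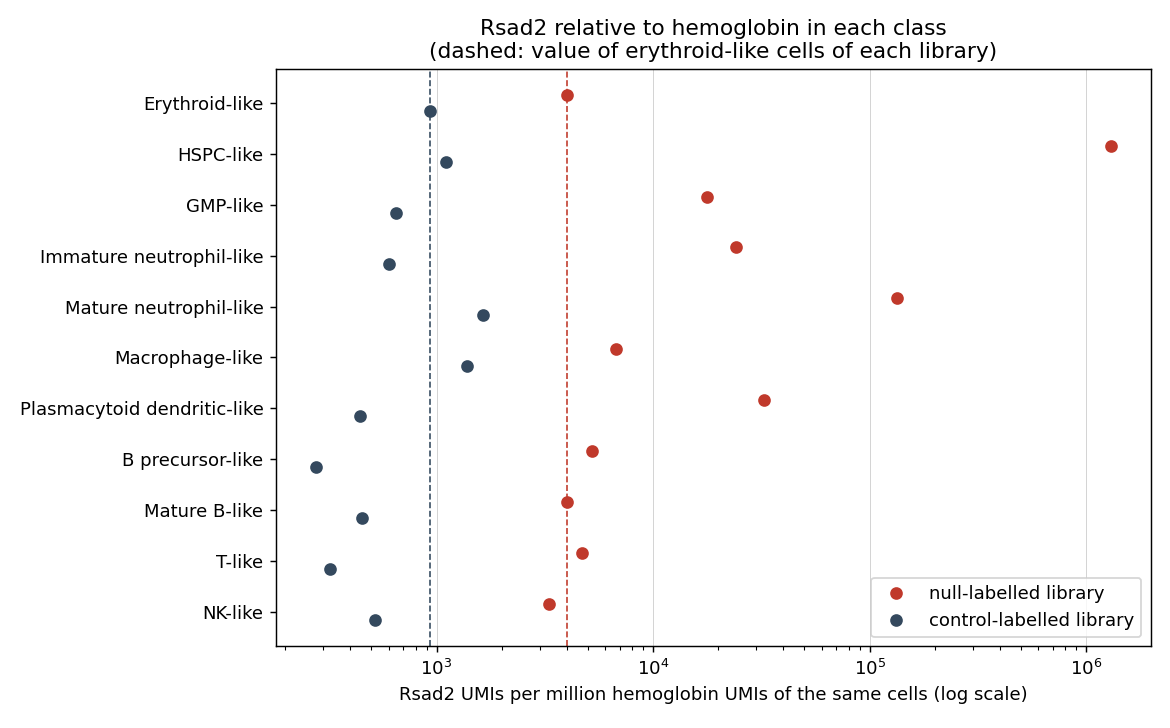
Rsad2 UMIs per 1000000 hemoglobin UMIs of the same cells (log scale) in 11 classes, null-labelled above control-labelled in each row, with dashed lines at the erythroid-like value of each library (4024 and 937). Control-labelled points run from 277 to 1647 around their line, while null-labelled HSPC-like and mature neutrophil-like cells lie far to the right of theirs.

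Among erythroid-like cells, viperin transcripts rose with the hemoglobin share in both libraries when hemoglobin was left out of the totals. With hemoglobin left out of the totals, null-labelled cells with under 20%, 20 to 60% and over 60% hemoglobin held 1062, 5277 and 14981 CPM of Rsad2. Control-labelled cells held 48.4, 513 and 4245 CPM in the same order. The ratio was 21.9-fold in cells with least hemoglobin, 10.3-fold in the middle and 3.53-fold (3.41 to 3.65) in the cells with most. Null-labelled erythroid-like cells in the 3 ranges numbered 56, 263 and 601, and control-labelled ones 266, 613 and 920. Over all UMIs, null-labelled Rsad2 was at 943, 3027 and 2634 CPM, so it was lower in the highest range than in the middle one. Control-labelled Rsad2 was at 43.9, 310 and 841 CPM over all UMIs and rose at every step.

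With hemoglobin left out of the totals, Ifit1 climbed as well but stayed scarce in control-labelled cells. It was at 185, 1151 and 3248 CPM of non-hemoglobin UMIs in null-labelled erythroid-like cells, and at 1.38, 24.2 and 100.2 CPM in control-labelled ones. Ifit3 was at 22.3, 20.6 and 832 CPM in null-labelled cells of the 3 ranges, where control-labelled cells had 3, 1 and 0 UMIs. Ifit1bl1 had 3, 40 and 478 UMIs in the null-labelled ranges and 0 in all 3 control-labelled ones. The step in Ifit3 lay between the middle and the highest hemoglobin range, while Rsad2 and Ifit1 without hemoglobin in the totals rose at every step. Over all UMIs, null-labelled Ifit1 was at 164, 660 and 571 CPM, lower in the highest range than in the middle one.

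**Figure D3:**
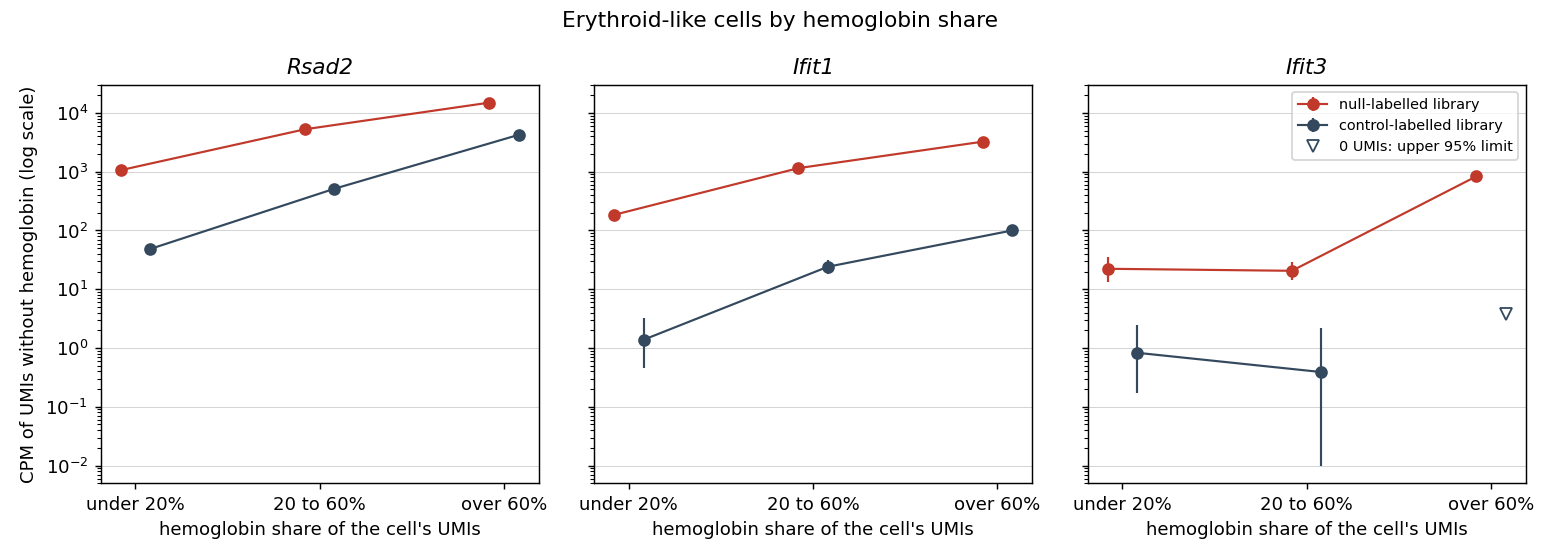
CPM of UMIs without hemoglobin (log scale) for Rsad2, Ifit1 and Ifit3 in erythroid-like cells split by hemoglobin share, with exact Poisson 95% intervals. The Rsad2 lines approach each other with increasing hemoglobin (14981 against 4245 CPM at the right), whereas Ifit3 had 0 UMIs in control-labelled cells over 60% hemoglobin.

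Over all UMIs, Ifit1 was highest in the null-labelled library in mature neutrophil-like cells, at 689 CPM against 12.01 CPM in control-labelled ones (57.4-fold, 45.4 to 73.5). Hemoglobin made up 64.2% of null-labelled erythroid-like and 0.960% of mature neutrophil-like UMIs, which lowers the erythroid-like CPM of other genes. Without hemoglobin, erythroid-like Ifit1 in the 2 upper hemoglobin ranges was at 1151 and 3248 CPM. The orders for Ifit2 and Ifit3 below also use all UMIs. Erythroid-like cells followed at 557 CPM against 12.5 CPM (44.5-fold, 38.1 to 52.3), then HSPC-like cells at 253 CPM against 2.89 CPM and immature neutrophil-like cells at 222 CPM against 2.92 CPM. T-like cells at 152 CPM against 10.1 CPM and GMP-like cells at 151 CPM against 0.301 CPM had overlapping intervals in the null-labelled library. B precursor-like cells at 61.2 CPM against 2.71 CPM and mature B-like cells at 55.3 CPM against 2.17 CPM were lowest in the null-labelled library. In control-labelled GMP-like cells only 2 UMIs were counted, against 368 in null-labelled ones, a ratio of 503 (138 to 4171).

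Ifit2 was the most even of the 6 across the null-labelled cell types. Its null-labelled levels were 454 CPM in mature neutrophil-like, 247 CPM in HSPC-like, 177 CPM in B precursor-like, 115 CPM in mature B-like, 105 CPM in immature neutrophil-like, 103 CPM in GMP-like, 65.8 CPM in T-like and 58.2 CPM in erythroid-like cells. The control-labelled levels ran from 1.87 CPM in mature neutrophil-like to 7.61 CPM in T-like cells. Mature neutrophil-like cells thus had the highest value in the null-labelled library and the lowest in the control-labelled one. The latter rests on 12 UMIs (0.967 to 3.27 CPM), and its interval overlaps those of erythroid-like, mature B-like, HSPC-like and T-like cells. The ratio in mature neutrophil-like cells, 243 (138 to 473), was far above the 14.2-fold to 37.9-fold of GMP-like, immature neutrophil-like, erythroid-like, B precursor-like, HSPC-like and mature B-like cells. T-like cells had the smallest ratio, 8.66 (3.79 to 24.4).

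Ifit3 was highest in mature neutrophil-like cells too, at 654 CPM against 6.86 CPM (95.3-fold, 70.3 to 132). HSPC-like cells were at 271 CPM, T-like cells at 211 CPM and B precursor-like cells at 205 CPM in the null-labelled library, against 0.963, 3.80 and 1.94 CPM in the control-labelled one. Mature B-like cells were at 145 CPM against 5.204 CPM. Erythroid-like cells had 905 and 4 UMIs (95.6 and 0.303 CPM), a ratio of 315 (123 to 1159), and immature neutrophil-like cells had 522 and 1 UMIs, a ratio of 784 (140 to 31030). GMP-like cells were at 39.5 CPM, with 1 UMI in the control-labelled library. In null-labelled T-like, mature B-like and B precursor-like cells Ifit3 had the most UMIs of the 6 genes, with 231 of their 577 UMIs in null-labelled T-like cells, and with 38.7% in mature B-like and 32.2% in B precursor-like cells, against 2.81% in erythroid-like cells.

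Ifit3b and Ifit3 are hard to keep apart by sequence. Their longest annotated transcripts were identical at 98.0% of 1697 aligned bases, and 67 of 451 words of 50 bases from the last 500 bases of Ifit3 were also in Ifit3b. Reads from those words cannot be assigned to 1 of them, so both counts are uncertain by an amount the matrices do not show. As counted, Ifit3b gave 1233 of the 6164 UMIs of the pair in the null-labelled library and 99 of 270 in the control-labelled one. Its share was 34.2% (31.7% to 36.8%) in null-labelled erythroid-like cells, against 18.3% (15.8% to 21.0%) in mature neutrophil-like, 19.8% in HSPC-like, 17.6% in B precursor-like and 11.2% (7.60% to 15.6%) in T-like cells. Control-labelled mature neutrophil-like cells stood apart, with 67 Ifit3b UMIs and 44 Ifit3 UMIs, a share of 60.4% (50.6% to 69.5%), while control-labelled monocyte-like cells had 18.4% (11.3% to 27.5%).

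Ifit1bl1 followed a pattern of its own. It was at 55.1 CPM with 521 UMIs in null-labelled erythroid-like cells and at 0 of 13180292 UMIs in control-labelled ones, at least 242-fold higher against a floor of 3 UMIs in the control-labelled class. B precursor-like cells were at 22.9 CPM against 1.55 CPM (14.8-fold, 6.93 to 36.1). T-like cells held 24 and 15 UMIs, 21.9 CPM against 19.0 CPM, a ratio of 1.154 (0.581 to 2.37) that does not separate the libraries and that fell below 1 after thinning. It was scarce in the neutrophil line, with 5 and 4 UMIs in mature and 7 and 1 in immature neutrophil-like cells. HSPC-like cells had 3 and 0 UMIs, too few for a fold. Its transcript was identical to that of Ifit1bl2 at 91.6% of aligned bases, so counts of that pair may also share reads.

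By cell type, all 6 genes were 2-fold or more higher in null-labelled erythroid-like, GMP-like, B precursor-like, immature neutrophil-like and mature neutrophil-like cells. The shares of all genes measured that were 2-fold or more higher in those types were 8.79%, 9.18%, 9.01%, 11% and 25.2%. Those shares rest on genes that passed the filter on low values, which 5, 3, 4, 4 and 5 of the 6 genes did in the same types. The others were counted on fewer UMIs, such as Ifit1bl1 on 7 and 1 in GMP-like cells. In T-like, HSPC-like and mature B-like cells, 5 of the 6 were, among them in mature B-like cells Ifit1bl1, whose log2 ratio turned to -0.45 after thinning. In those types 10.6%, 9.18% and 13.4% of all genes were, and 4, 5 and 3 of the 6 genes passed the same filter there. The genes not 2-fold higher in these types were Ifit1bl1 in HSPC-like and T-like cells and Rsad2 in mature B-like cells. None of the 6 was 2-fold or more lower in any of the 8 types or over all cells, where 12.1% of all genes were. By type the shares of all genes lower by 2-fold were 7.01% in GMP-like, 8.74% in HSPC-like, 9.24% in B precursor-like, 11.5% in mature neutrophil-like, 11.6% in immature neutrophil-like, 12.2% in T-like and 15.2% in mature B-like cells. In erythroid-like cells 46.6% of all genes measured were 2-fold or more lower, and the median of all genes was -0.92 on the log2 scale, so folds there stand against a shifted background. Scaled with TMM factors in place of library totals, the log2 ratio of the 6 genes' sum in erythroid-like cells was 4.07 in place of 2.94.

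Summed, the 6 genes were at 3229.6 CPM in null-labelled and 95.8 CPM in control-labelled mature neutrophil-like cells (33.7-fold, 31.0 to 36.8), and at 3399.7 CPM against 444 CPM in erythroid-like cells (7.65-fold, 7.44 to 7.87). HSPC-like cells had 1624 CPM against 26.0 CPM, the largest ratio of the 8 types at 62.4 (42.8 to 94.9). Ratios were 27.3 in GMP-like, 29.4 in immature neutrophil-like and 25.5 in B precursor-like cells, and 8.49 in T-like and 7.87 in mature B-like cells. The median of the 8 log2 ratios was 4.72. Mature B-like cells depended on the cells kept: with a limit of 5% mitochondrial UMIs, 45 and 118 such cells remained and the ratio was 1.89 (1.37 to 2.61), with Rsad2 at 19 and 63 UMIs and the 5 Ifit genes at 74 and 8 UMIs.

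HSPC-like cells of both libraries fell in the same cluster, which was not so for most types. Its sub-clusters still split by library. Null-labelled HSPC-like cells lay mostly in 29.0 and 29.1 (39 and 23 cells), control-labelled ones in 29.2 and 29.4 (41 and 28 cells). Null-labelled erythroid-like cells were mostly in clusters 6 and 13 and control-labelled ones in clusters 4 and 7, mature neutrophil-like cells were in cluster 11 against clusters 0 and 1, and T-like cells were in cluster 28 against cluster 27. A type can therefore hold different cells in the 2 libraries. Across sub-clusters, the lowest null-labelled sum was above the highest control-labelled one in HSPC-like (686 against 67.3 CPM), GMP-like (361 against 28.7 CPM), B precursor-like (350.1 against 151 CPM), mature neutrophil-like (2728 against 332 CPM), immature neutrophil-like (343 against 109 CPM), T-like (360.0 against 92.1 CPM) and mature B-like cells (255 against 213 CPM). In erythroid-like cells the ranges overlapped, 679.9 to 8726 CPM over 14 null-labelled sub-clusters and 49.0 to 2212 CPM over 23 control-labelled ones. Sub-clusters with few cells of a library were left out of these ranges. The genes were chosen as differing between the libraries, so the separation restates that choice. Sub-clusters of 1 library are not replicates, and the share of all genes that separate in this way was not counted.

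**Figure D4:**
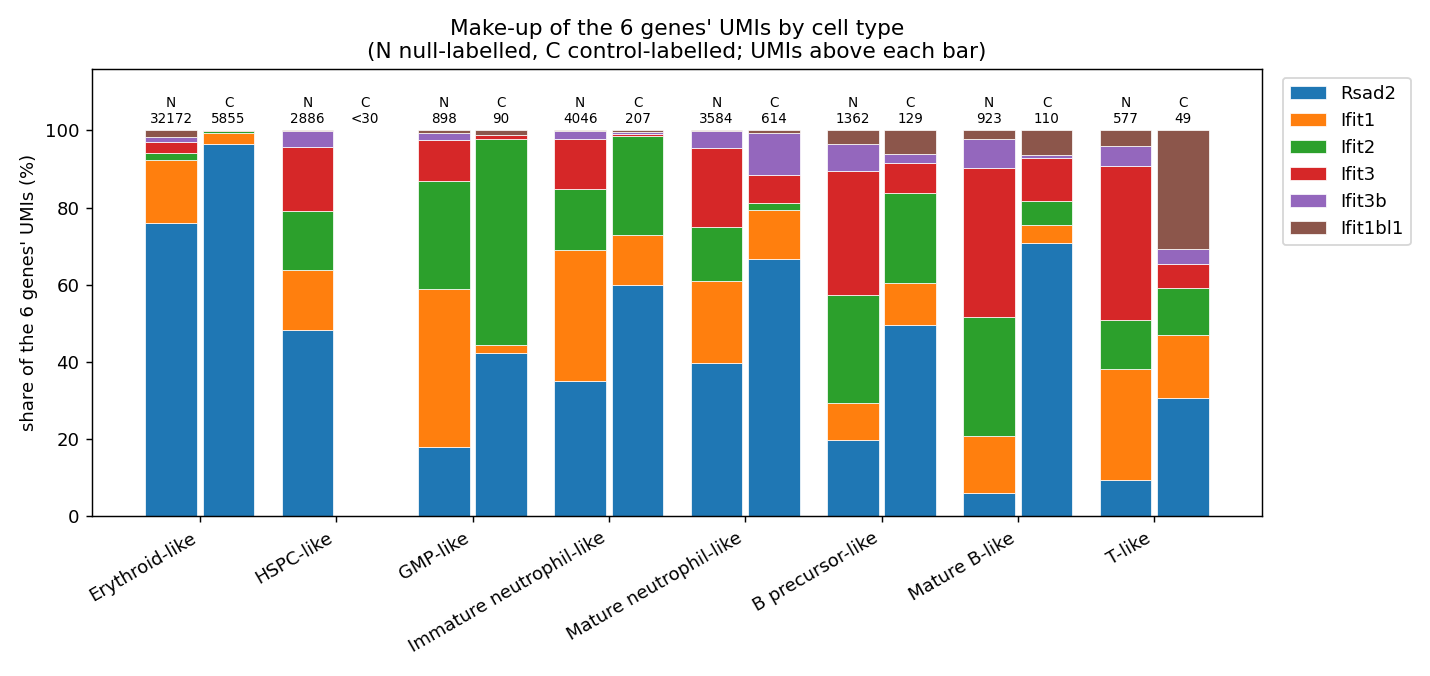
Share of the UMIs of the 6 genes that each gene contributes, in percent, by cell type, with the null-labelled library (N) left of the control-labelled library (C) and the UMIs counted above each bar. Rsad2 makes up 76.0% and 96.4% of the erythroid-like bars, while Ifit3 is the largest part of the null-labelled T-like, mature B-like and B precursor-like bars.

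The make-up of the 6 genes' UMIs separated the lineages. In null-labelled erythroid-like cells Rsad2 gave 76.0% and Ifit1 16.4% of them. In null-labelled GMP-like cells Ifit1 led with 41.0% (37.7% to 44.3%), and Rsad2 gave 18.0%. Rsad2 gave 48.3% in HSPC-like cells, 39.6% in mature and 35.2% in immature neutrophil-like cells, 19.8% in B precursor-like, 9.53% in T-like and 6.18% (4.71% to 7.93%) in mature B-like cells. In control-labelled GMP-like cells Ifit2 led with 53.3% (42.5% to 63.9%) of 90 UMIs, and in T-like cells Ifit1bl1 and Rsad2 each gave 30.6% of 49 UMIs.

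The share of cells with any of the 6 genes was compared after each cell was thinned to 1000 UMIs, since null-labelled cells held more UMIs (median 9321 against 4812). Of 2834 null-labelled cells 57.7% (55.9% to 59.6%) held such a UMI, against 10.7% (10.1% to 11.4%) of 8402 control-labelled cells, a difference of 47.0 percentage points. Unthinned the shares were 85.9% and 26.0%. The 69 null-labelled and 193 control-labelled cells under 1000 UMIs were left out. Mature neutrophil-like cells reached 92.0% against 6.94%, erythroid-like cells 84.0% against 30.9%, HSPC-like cells 67.7% against 2.70%, immature neutrophil-like cells 46.1% against 1.14% and B precursor-like cells 41.0% against 2.45%. T-like cells were at 33.6% against 3.94%, GMP-like cells at 29.9% against 1.18% and mature B-like cells at 26.2% against 2.74%. No class here should lack these genes altogether. As the lowest comparison, 2 of 40 null-labelled NK-like cells (0.611% to 16.9%, median 9256.5 UMIs) held one, under each of the 8 null-labelled types.

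**Figure D5:**
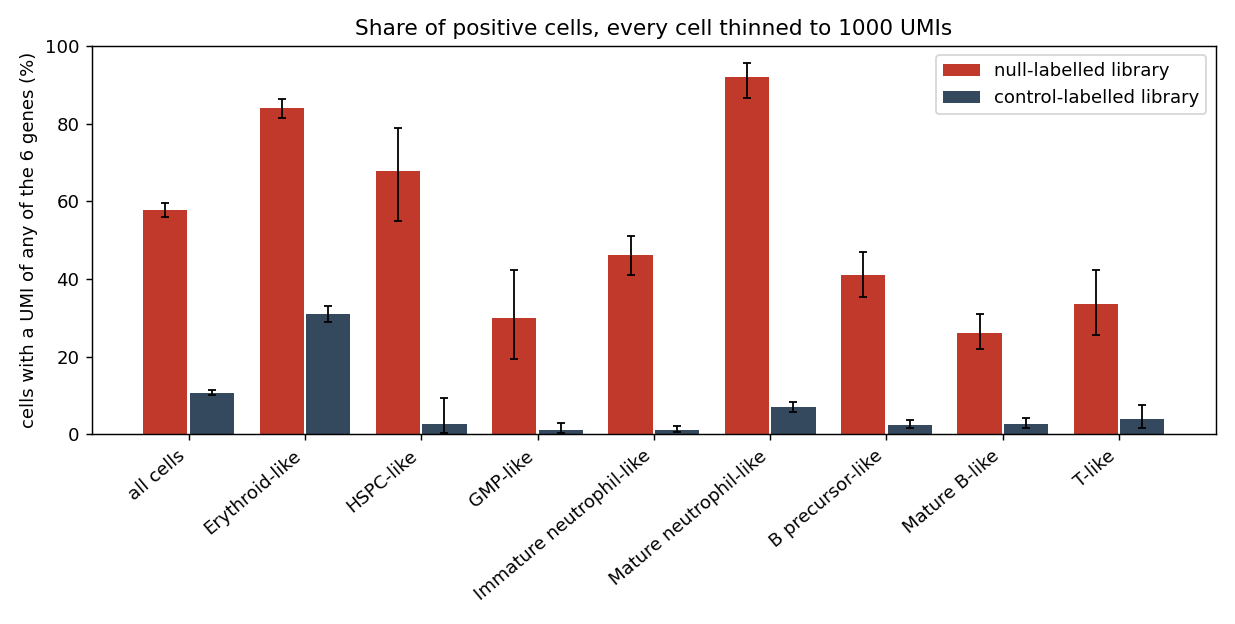
Percent of cells with at least 1 UMI of any of the 6 genes after thinning to 1000 UMIs, null-labelled left of control-labelled, with exact Clopper-Pearson 95% intervals. The intervals of the 2 libraries do not overlap in any of the 8 types, from 92.0% against 6.94% in mature neutrophil-like cells to 26.2% against 2.74% in mature B-like cells.

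Within the null-labelled library, the 10% of cells with the highest counts held 47.0% of the thinned UMIs of the 6 genes. In mature neutrophil-like cells the top 10% held 25.04% of them, with a median of 3 UMIs per 1000, and in mature B-like cells 60.4%, with a median of 0. At least 3 different genes of the 6 were seen in 8.43% of null-labelled and 0.131% of control-labelled cells. Few control-labelled cells carried the genes together: of 10 mature neutrophil-like cells with an Ifit3 UMI, 5 also held Ifit1 (18.7% to 81.3%), against 19 of 1835 without one (1.04%, 0.625% to 1.61%).

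In null-labelled cells joint detection differed by lineage. Of 57 erythroid-like cells with an Ifit3 UMI, 38 held Ifit1 (66.7%, 52.9% to 78.6%), against 276 of 853 without one (32.4%, 29.2% to 35.6%). T-like cells had 8 of 25 (32.0%) against 7 of 109 (6.42%). In B precursor-like cells the shares with Ifit1 were 2 of 64 (3.12%) and 9 of 229 (3.93%), whereas Ifit2 was in 23 of the 64 (35.9%, 24.3% to 48.9%) against 32 of the 229 (14.0%, 9.76% to 19.2%). In mature neutrophil-like cells Ifit1 was in 33 of 71 (46.5%) against 41 of 91 (45.1%), and Ifit2 in 32 of 71 (45.1%, 33.2% to 57.3%) against 25 of 91 (27.5%, 18.6% to 37.8%), with overlapping intervals.

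The smaller classes are given as values, since each had under 50 cells in a library. NK-like cells, in cluster 28 in the null-labelled library beside the T-like cells and in cluster 32 in the control-labelled one, held 16 UMIs of the 6 genes in 40 null-labelled and 16 in 77 control-labelled cells, 41.2 CPM against 47.2 CPM (ratio 0.873, 0.409 to 1.87). The 5 Ifit genes gave 3 and 9 of those UMIs. Isg15, a ubiquitin-like interferon-induced protein, had 14 and 3 UMIs in the same cells (4.07-fold, 1.14 to 22.1). Plasmacytoid dendritic-like cells, a type known as a strong interferon producer, held 353 and 7 UMIs in 22 and 60 cells, 1506 CPM against 22.6 CPM (66.5-fold, 31.9 to 167), with Ifit2 leading at 580 CPM. Both libraries shared cluster 31 for them, but null-labelled cells lay mostly in sub-cluster 31.1 and control-labelled ones in 31.0 and 31.2.

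In macrophage-like cells Rsad2 was at 1003 CPM in 44 null-labelled and 803 CPM in 255 control-labelled cells (1.25-fold, 0.984 to 1.57), where Ifit2 was at 768 CPM against 3.60 CPM (213-fold, 86.6 to 680). Hemoglobin made up 14.9% of null-labelled and 58.1% of control-labelled macrophage-like UMIs, and the cells lay in clusters 36 and 22. Plasma-like cells, almost all null-labelled, held 18 UMIs in 30 cells (50.4 CPM). Monocyte-like cells were named in the control-labelled library alone, where 636 cells held 48.2 CPM of the 6 genes, and 3 null-labelled sub-clusters of cluster 24, with Saa3 and Ccl2 among their leading genes, stayed unnamed and held 614, 3533 and 108 CPM.

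The genomic neighbours give a local comparison. Ifit1bl2 (ENSMUSG00000067297), a coding gene inside the Ifit cluster at chr19:34617049-34640743 on the minus strand, went the other way, with 24 UMIs in the null-labelled and 387 UMIs in the control-labelled library (0.715 CPM against 6.56 CPM, ratio 0.109, 0.0690 to 0.165). Mature neutrophil-like cells held 3 of the 24 null-labelled and 343 of the 387 control-labelled UMIs, 2.70 CPM against 53.5 CPM (0.0505, 0.0104 to 0.149), and immature ones held 9 and 40. In the same mature neutrophil-like cells Ifit1 was 57.4-fold higher. Mature neutrophil-like cells were 5.72% of the null-labelled and 22.2% of the control-labelled cells. The RefSeq start sites of Ifit1 and Ifit1bl2 lie 146 bases apart and point away from each other, and both of the capitalised matches in the Ifit1 sequence above also lie in the window of Ifit1bl2.

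On either side of the cluster, Lipa, encoding a lysosomal lipase, was at 9.12 CPM against 20.3 CPM, Fas, a death receptor, at 23.6 CPM against 12.5 CPM, and Ch25h, encoding cholesterol 25-hydroxylase, at 10 UMIs against 1. Pank1 (1.25 CPM against 4.36 CPM) and Kif20b (31.0 CPM against 57.2 CPM) were lower, and Slc16a12 had 0 and 8 UMIs. Beside Rsad2, Cmpk2, which encodes a mitochondrial nucleotide kinase, lies 12752 bases away and was at 170.3 CPM against 33.9 CPM (5.03-fold, 4.78 to 5.29). Its ratio was near that of Rsad2 in erythroid-like cells, 5.82 (5.38 to 6.31) against 6.03, and under it in mature neutrophil-like cells, 5.78 (4.995 to 6.68) against 20.03. In mature B-like cells Cmpk2 was at 27.6 CPM against 19.5 CPM (1.42, 0.958 to 2.11). Of the other neighbours of Rsad2, Rnf144a was at 33.6 CPM against 42.0 CPM, Id2, an inhibitor of basic helix-loop-helix factors, at 287 CPM against 69.7 CPM and Kidins220 at 23.1 CPM against 21.9 CPM. Sox11 had no UMI and Dcdc2c had 1 against 0.

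The genes whose levels over the 8 cell types were most like the sum of the 6 were Usp25 (mean Pearson r of the 2 libraries 0.94), Smox (0.92), Isg20 (0.91), Foxo3 (0.91), Zcchc6 (0.89), Rnf11 (0.88), Add1 (0.88) and Isg15 (0.88), out of 4183 eligible genes on the log2(CPM + 1) scale. The 8 points of each library share its depth and free RNA, and the sum is mostly Rsad2. Viperin itself had r = 0.96 and 0.98 with the sum in the null-labelled and control-labelled library, and Ifit1 0.86 and 0.83. Ifit2 had 0.35 and -0.63 and Ifit3 0.51 and 0.18, so the sum does not stand for those genes.

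The signalling chain was read from lists of the pathway. Transcripts of the 19 type I and III interferon genes were nearly absent, 15 UMIs in the null-labelled and 1 in the control-labelled library, and none reached 30 UMIs. Ifng, which encodes interferon gamma, had 74 and 43 UMIs (2.20 CPM against 0.729 CPM, 3.02-fold, 2.05 to 4.51), of which T-like cells held 60 and 15. Of 9 receptor and kinase genes 2 were 2-fold or more higher and 1 lower, with a median log2 ratio of -0.15 beside -0.24 over all genes with 30 UMIs, of which 8.54% were 2-fold or more higher. Ifnar2, a chain of the type I receptor, was at 131 CPM against 45.0 CPM, Jak2 at 60.2 CPM against 26.7 CPM, Jak1 at 104 CPM against 134 CPM and Ifnlr1, the type III receptor chain, at 2.14 CPM against 6.10 CPM.

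Of 9 STAT and IRF factors 4 were higher and none lower by 2-fold, with a median log2 ratio of 0.87. Irf7, which amplifies interferon genes, was at 365 CPM against 22.9 CPM (15.9-fold), Stat2 at 128 CPM against 12.3 CPM (10.4-fold) and Irf3 at 15.6 CPM against 26.3 CPM. Of 7 feedback inhibitors 3 were higher and none lower (median 0.79), with Usp18, which blocks the type I receptor, 21.0-fold and Socs1 12.2-fold higher, and with Ptpn1 at 167 CPM against 96.5 CPM and Ptpn6 at 116.3 CPM against 145 CPM. Of 13 RNA and DNA sensors and adaptors with 30 UMIs, 7 were higher and 1 lower (median 1.23). Ifih1, encoding MDA5, was 6.91-fold and Ddx58, encoding RIG-I, 3.77-fold higher, Dhx58 7.44-fold and Tlr3 7.53-fold. Mavs, the adaptor of MDA5 and RIG-I, was at 4.47 CPM against 9.32 CPM.

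Other interferon-induced genes were higher as well. Of 29 further type I-induced genes with 30 UMIs, 26 were 2-fold or more higher and none lower, with a median log2 ratio of 2.98. Ifitm3, which blocks virus entry, was at 3699 CPM against 559.5 CPM, Isg15 at 2311 CPM against 127 CPM, and Apol9b had 310 and 5 UMIs (109-fold, 46.2 to 338). Apol9a had 158 and 0 UMIs, at least 92.6-fold higher, and Siglec1 was at 0.626 CPM against 0.610 CPM. Of 17 genes that answer more strongly to interferon gamma, 16 were higher and none lower, with a median of 5.44. Cxcl10, a chemokine, was at 769 CPM against 2.54 CPM, Gbp2 at 609 CPM against 4.86 CPM, Tgtp1 had 445 and 2 UMIs and Nos2 640 and 1 UMIs, while Ciita was at 10.4 CPM against 10.6 CPM. Of 10 immediate early genes, which can but need not mark handling of the cells, 1 was higher and 1 lower (median 0.48). Atf3 was at 9.92 CPM against 1.63 CPM and Fosb at 9.09 CPM against 29.9 CPM. Jund was at 442 CPM against 286 CPM, Jun at 135 CPM against 95.1 CPM and Egr1 at 12.2 CPM against 6.68 CPM. In immature neutrophil-like cells 6 of the 9 with 30 UMIs were higher and 1 lower (median 1.23), beside 9.22% of all genes higher. In mature neutrophil-like cells 5 of 10 were higher and 1 lower (median 0.95), beside 21.9%. Of 8 such genes in B precursor-like cells 0 were higher and 2 lower, and of 7 in GMP-like cells 0 and 1. The counts were 1 and 3 of 9 in mature B-like and 1 and 1 of 9 in HSPC-like cells. They were 2 and 3 of 7 in erythroid-like and 2 and 0 of 7 in T-like cells. Summed, the 5 Ifit genes were higher in all 8 types, from 11.1-fold in T-like to 79.2-fold in HSPC-like cells. The part of the immediate early genes in the levels of the 6 genes was not tested.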

How the data were processed

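Both 10x 3′ libraries of mouse bone marrow were used, with 1 per genotype. The deposited values are raw UMI counts per gene and barcode, made by the authors with Cell Ranger 3.0 against mm10, per the submitters' processing notes, while the matrix header names software version 3.1.0. The notes also name Seurat.

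From these, cells needed 200 genes and at most 10% mitochondrial UMIs, which removed 1307 null-labelled and 3479 control-labelled barcodes, and predicted doublets (71 and 690) were dropped next. The libraries share 11 barcodes. Kept UMIs numbered 33570111 and 59003767. Cells of both libraries were clustered together with scanpy 1.11.5 (2000 variable genes, 30 components, 15 neighbours), leaving out 790 genes. They included the genes studied, all listed pathway genes and other interferon-response genes. Hemoglobin, immunoglobulin, ribosomal, mitochondrial and histocompatibility (H2) genes were left out too. Sub-clusters were named from marker lists, with score limits set after seeing the data.

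UMIs were summed per library and cell type. Ratios have exact conditional binomial intervals and levels exact Poisson intervals, all at 95%. A gene entered the genome-wide counts if it reached 50 CPM in 1 of the libraries and 30 UMIs over both. TMM factors came from edgeR 4.0.16. The sums and intervals were tested on simulated data. No p-value is given, since there is 1 library per genotype. The members, gene lists and naming rule for genes (per list, the 2 most abundant, 2 largest and 1 smallest ratio) were chosen with earlier results of these data known. One gene that this rule picks is not reported here.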

Additional observations from a re-analysis of the deposited data

Results flagged for a closer look

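The barcodes that the gene and mitochondrial filters left out also carried the 6 genes, a signal in data that the comparisons do not use. There were 1307 such barcodes in the null-labelled and 3479 in the control-labelled library. Their summed level was 286 CPM in null-labelled and 244 CPM in control-labelled barcodes (1.17-fold, 1.11 to 1.23), against 10.7-fold in the cells kept. Most had under 200 genes (1202 and 3223 barcodes), with hemoglobin at 94.7% and 92.2% of their UMIs. In these, Rsad2 was at 254 CPM against 247 CPM, and with hemoglobin left out of the totals at 4785 CPM against 3185 CPM (1.502-fold, 1.42 to 1.58). Ifit1 had 67 and 39 UMIs there. The part of this RNA in the levels of the kept cells was not tested.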

How the results depend on the processing

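The log2 ratio of the summed genes over all cells was 3.42, and it was 3.61 with TMM factors, 3.50 with hemoglobin left out of the totals, 2.95 with no cell filter, 3.38 with a 5% mitochondrial limit, 3.37 with doublets kept, 3.37 with cells thinned to 1000 UMIs and 3.30 as a mean over cells. All 6 genes stayed 2-fold or more higher over all cells in the 9 alternatives run. The median log2 ratio over the 8 types was 4.72, and 4.23 with cells named one by one. The share of cells with any of the genes differed by 47.0 percentage points, by 32.5 with no cell filter, 53.3 with the 5% limit, 36.8 at 500 UMIs, 52.96 at 2000 UMIs and 34.1 for 2 or more UMIs.

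Directions turned for Rsad2 in mature B-like cells (log2 ratio -0.55, but 0.52 thinned, 0.46 as a mean over cells and 0.88 with cells named one by one) and for Ifit1bl1 in mature B-like cells (1.49, but -0.45 thinned), in T-like cells (0.21, but -0.14 thinned) and in HSPC-like cells (-0.78 at the floor of 3 UMIs, but 0.55 with cells named one by one). The cause was not tested. The mature B-like sum was 2.98, but 0.92 with the 5% limit, 3.76 with cells named one by one and 3.77 as a mean over cells. The T-like sum was 3.09, but 4.21 thinned, and the erythroid-like sum 2.94, but 4.07 with TMM factors and 3.54 without hemoglobin.

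Cell types were not recomputed with no cell filter or with doublets kept. No paired analysis was possible because there is 1 library per genotype. Counts of 0 to 3 UMIs in control-labelled classes leave wide ratio intervals for Ifit3, Ifit3b and Ifit1bl1.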
